A study of Rattus norvegicus with 8 samples.

Results

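Mitochondrial ribosomal proteins are encoded in the nucleus, made in the cytosol and imported into mitochondria, where they join ribosomal RNA of the mitochondrial genome to form the mitoribosome. The mitoribosome makes the few membrane subunits of the respiratory chain and ATP synthase that mitochondrial DNA encodes. Cells of the colon surface draw much of their energy from mitochondrial oxidation of butyrate, a bacterial fermentation product. The genes were chosen by name: each probe set whose platform annotation gives 1 symbol that begins with Mrpl (proteins named for the large subunit) or Mrps (named for the small subunit) and a digit. This rule took 97 probe sets of 73 genes, out of 14217 named genes on the array, and for the 18 genes with several probe sets the probe set with the highest mean signal over all arrays stood for the gene.

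Rats received either a breeder chow, RM3 [E] FG SQC, as the control diet (4 arrays) or quercetin, a plant flavonol, at 10 g per kg of diet (4 arrays), in either case for 11 weeks. RNA came from scraped distal colon mucosa, 1 array per sample. The sources used here do not give strain, sex or age. The labels do not say whether each array holds a separate rat, so a p-value covers only the spread among these 8 samples, which may be technical. Values are MAS5 signals, linear brightness values per probe set. All 19 measured colonocyte markers and all 8 goblet markers passed the filter on dim probe sets, as did 7 of 13 smooth muscle, 3 of 9 fibroblast and endothelial and 5 of 14 leukocyte markers.

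All 73 genes passed this filter, with mean signals from 97.9 (Mrpl38) to 2576 (Mrpl12). The highest mean signals were those of Mrpl12, the stalk protein that recruits translation factors, Mrps6, Mrpl41 and Mrpl18, though signals of different probe sets depend on their probes and do not rank transcripts. By the protein's place in the assembled mitoribosome 48 of the genes encode proteins of the large subunit and 25 of the small subunit. Mrps18a and Mrps30 count with the large subunit despite their names. Of the 73, 44 encode a protein with a counterpart in bacterial ribosomes and 29 a protein found only in mitochondrial ribosomes. Here Mrps18a and Mrps18b count with the former as homologues of bacterial S18, although the current nomenclature names both as specific to mitochondria.

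Promoters of the genes were set beside their values because the factors NRF-1, GABP (an ETS factor) and YY1 are known to act on many nuclear genes for mitochondrial proteins. RefSeq promoter sequences (build GRCr8, 250 bases before to 50 bases after the gene's start) were found for 59 of the 73 genes. The genes not in that table include Mrpl35, Mrpl38 and Mrpl19. Upstream stretches of 5 genes described below are shown, 160 bases ending just before the start, 5′ to 3′ on the gene's strand. They were picked for having a match, from genes with higher and with lower signals in quercetin and from the Mrps18 family. Capitals mark matches to the NRF-1 core GCGCNTGCG, the ETS core CCGGAAG or the YY1 core AAGATGGCG on either strand. Mrps18b (chr20:2842846-2843005, plus strand) and Mrpl44 (chr9:88554890-88555049, plus strand) hold the NRF-1 core, whose matches on the opposite strands overlap. Mrpl36 (chr1:31795122-31795281, minus strand) holds the ETS core and, nearer its start, the YY1 core on the opposite strand. Mrps18a (chr9:22367381-22367540, minus strand) and Mrps31 (chr16:76324066-76324225, minus strand) hold the ETS core. Outside these stretches, Mrps18b has an ETS core across its start and Mrps18a a YY1 core from its start.
Mrps18b: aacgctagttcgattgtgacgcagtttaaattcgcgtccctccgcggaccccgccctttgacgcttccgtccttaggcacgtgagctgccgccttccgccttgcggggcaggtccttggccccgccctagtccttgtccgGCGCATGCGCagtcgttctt
Mrpl44: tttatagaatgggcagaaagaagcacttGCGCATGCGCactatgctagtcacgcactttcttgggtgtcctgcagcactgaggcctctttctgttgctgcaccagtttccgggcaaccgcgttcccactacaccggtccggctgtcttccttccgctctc
Mrpl36: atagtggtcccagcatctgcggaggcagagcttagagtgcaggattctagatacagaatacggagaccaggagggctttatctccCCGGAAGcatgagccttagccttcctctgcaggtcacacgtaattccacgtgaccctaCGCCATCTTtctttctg
Mrps18a: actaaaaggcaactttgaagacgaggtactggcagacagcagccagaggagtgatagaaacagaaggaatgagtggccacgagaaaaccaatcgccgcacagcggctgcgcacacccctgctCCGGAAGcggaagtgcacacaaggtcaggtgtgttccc
Mrps31: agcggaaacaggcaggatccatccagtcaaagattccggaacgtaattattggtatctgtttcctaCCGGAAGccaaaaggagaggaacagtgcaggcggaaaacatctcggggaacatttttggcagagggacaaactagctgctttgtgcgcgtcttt

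In the whole 300-base window an ETS core was found in 20 of the 59 promoters (33.9%), an NRF-1 core in 12 (20.3%) and a YY1 core in 8 (13.6%). The shares among all 33469 promoters of the RefSeq table were 8.75%, 5.75% and 1.73%, and among 8624 promoters of genes tested on this array 18.8%, 13.7% and 4.05%. At least 1 of the 3 cores stood in 33 of the 59 promoters (55.9%), against 31.7% of the promoters of tested genes. Among 36 promoters of cytosolic ribosomal proteins the shares were 22.2% (ETS), 11.1% (NRF-1), 8.33% (YY1) and 41.7% (at least 1 core). The median GC content of the windows was 56% for the mitoribosomal genes and 61% for tested genes. The median log2 fold change (quercetin minus control) was 0.13 for the 33 genes with a core and 0.10 for the 26 without, with ranges of -0.30 to 0.46 and -0.20 to 0.32, and no test of this difference was made. A match is a run of letters and no evidence of binding.

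No mitochondrial ribosomal protein gene passed the test between the diets after adjustment over all 18625 probe sets tested. In limma's test with Benjamini-Hochberg adjustment 0 of 73 passed the threshold of 0.05, and the smallest adjusted p among them was 0.28. Over all probe sets 2 passed, 0.0107%. At an unadjusted p under 0.05, 5 of the 73 were higher in quercetin (6.85%) and 0 lower, where 5.04% of all probe sets were higher and 5.71% lower. With 1 probe set per named gene, as for the mitoribosomal genes, these shares were 6.09% higher and 3.34% lower. The share of mitoribosomal genes on the higher side was thus near that of all named genes. Leaving out 1 array at a time, the 5 higher genes became 2 without control array 1 or quercetin array 1, 3 without control array 4 or quercetin array 2, and 9 without quercetin array 3. The shares of all probe sets that were higher in these 5 fits were 4.69%, 4.39%, 4.62%, 3.14% and 4.82%, in the same order. With each array centred on its median, the shares of all probe sets were 5.95% higher and 4.38% lower, and 6 of the 73 were higher and 0 lower. No overlap between the groups, with all quercetin arrays above all control arrays, was seen in 2 of the 73 (2.74%), Mrpl38 and Mrpl52, against 3.09% of all probe sets. No overlap in the lower direction was seen in 0, against 3.3%.

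The fold changes were small and mostly on the higher side. Of the 73 genes 53 had a higher mean in quercetin (72.6%), compared with 51.3% of all probe sets and 56.0% of named genes. The median log2 fold change was 0.11, a median fold of 1.08, compared with 0.01 over all probe sets and 0.04 over named genes. Values ran from -0.30 to 0.78, and 46 of the 73 lay within 0.2 of zero while 2 were beyond 0.5. The median standard error was 0.16. The unadjusted 95% interval lay within a 2-fold change either way for 72 of the 73 genes, the exception being Mrpl38, and within a 1.5-fold change for 50. Quantile normalisation left 51 of the 73 higher and median centring 57. Median centring raised the median log2 fold change of all probe sets too, to 0.06, with 0.16 for the 73 genes. With quantile normalisation these medians were 0.02 and 0.09.

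**Figure D1:**
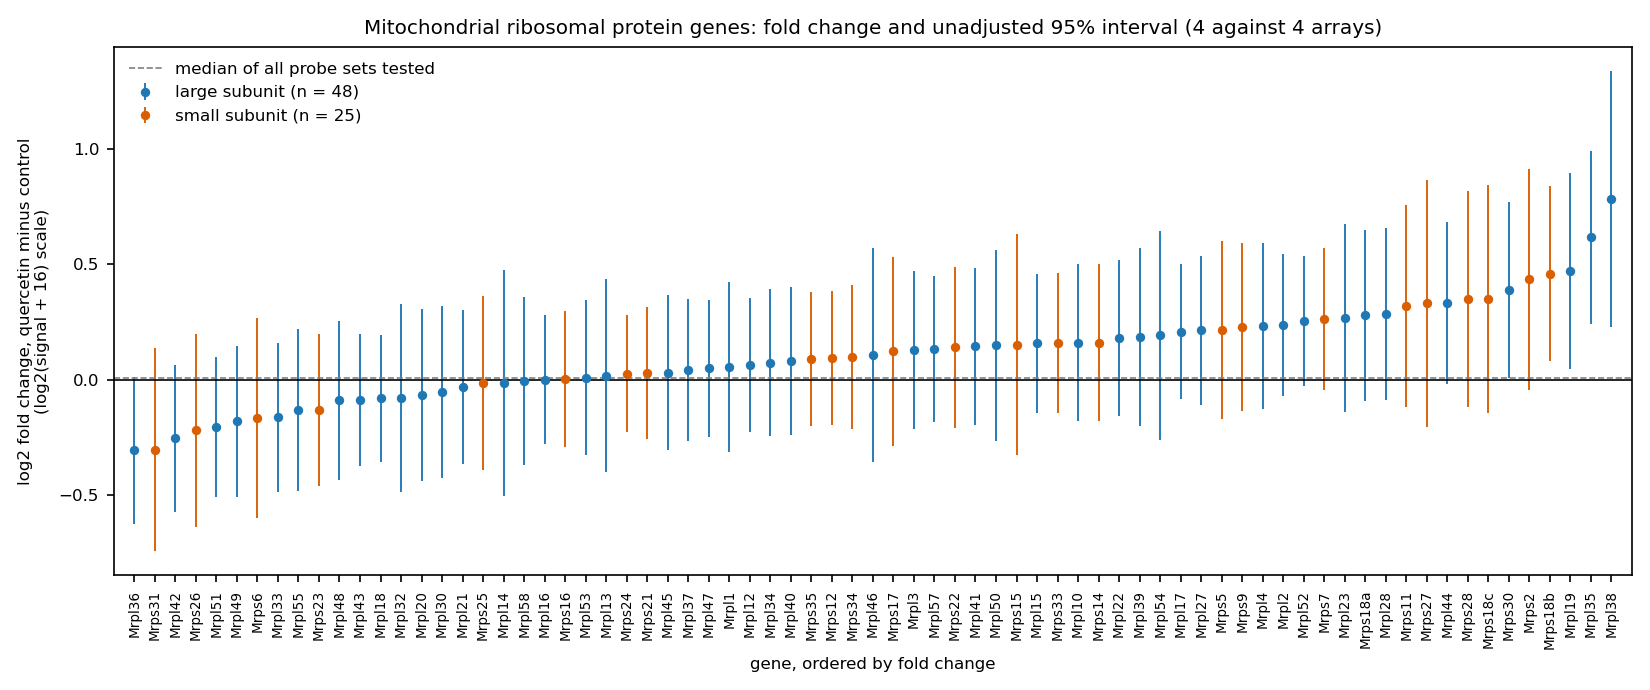
Log2 fold change (quercetin minus control, log2(signal + 16) scale) of the 73 genes in order, with unadjusted 95% intervals, 4 arrays against 4; colours give the subunit. Values run from -0.30 (Mrpl36) to 0.78 (Mrpl38), 53 lie above zero, and 5 intervals exclude zero, all on the higher side.

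The level of these genes as a group varied among arrays of the same diet. Each gene's log2 value was set against its own mean over the 8 arrays, and the median of these deviations was taken on each array. It was -0.10 on control array 1, -0.10 on control array 2, 0.08 on control array 3 and -0.10 on control array 4, and 0.26, 0.08, -0.11 and -0.06 on quercetin arrays 1 to 4. Quercetin array 1 was the highest and quercetin array 3 the lowest, and control array 3 lay level with quercetin array 2, so the groups overlapped. The group means were -0.06 ± 0.09 (SD, n = 4) and 0.04 ± 0.17 (SD, n = 4).

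On quercetin array 1, 70 of the 73 genes lay above their own mean (95.9%), where 9304 of all 18625 tested probe sets did. That array held the highest signal of 35 of the 73 genes (47.9%), and of 12.3% of all probe sets. On quercetin array 3 only 17 of the 73 lay above their own mean (23.3%), compared with 54.6% of all probe sets. Without quercetin array 1 the median log2 fold change of the 73 genes was 0.05 and 47 were higher. At an unadjusted p under 0.05 there were then 2 higher genes, Mrpl35 and Mrpl38, and 4 lower genes, Mrpl36, Mrpl42, Mrps31 and Mrpl51. Of all probe sets 4.39% were higher and 4.63% lower in that fit. Without control array 3 the median was 0.17, and without control arrays 1 and 2 it was 0.05 with 46 higher.

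**Figure D2:**
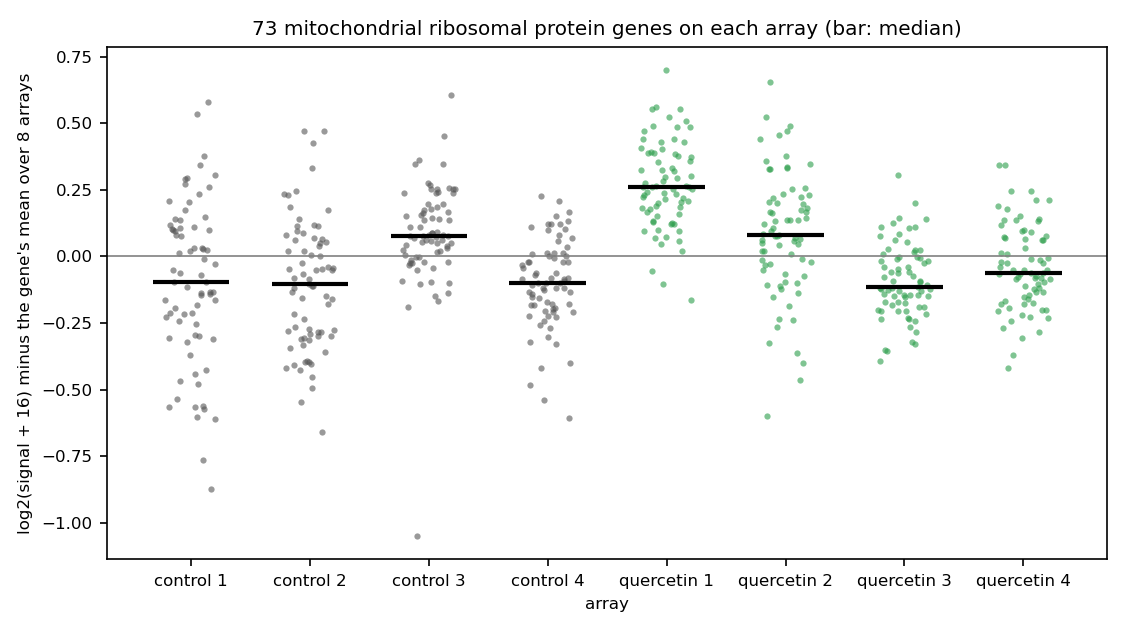
Deviation of each of the 73 genes from its own 8-array mean of log2(signal + 16), by array; points are genes, grey for control and green for quercetin, and bars are medians. Quercetin array 1 has the highest median, 0.26, and the medians of the other 3 quercetin arrays, -0.11 to 0.08, lie in nearly the same range as those of the 4 control arrays, -0.10 to 0.08.

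The mean pairwise correlation of the log2 values of the 73 genes over the 8 arrays was 0.30, and 0.32 once the group means were removed, while over all pairs of 10266 named genes it was 0.0066. Without quercetin array 1 it was 0.14. These correlations were taken over only 8 arrays, which share their scaling, and their source was not tested. Among markers measured on the same arrays, proliferation genes (28 tested of 30 written down, 28 higher in quercetin, 10 of them at an unadjusted p under 0.05) had a median log2 fold change of 0.62, with Foxm1 at 1.26 and Cdk1 at 0.92. Like the mitoribosomal genes, they had their highest median deviation on quercetin array 1, 0.68. Their summed signals were 3632 to 9455 in control and 8487 to 13152 in quercetin. Their lowest value, -1.08, was on control array 1, where the mitoribosomal genes stood at -0.10. Leukocyte markers had 5 of the 5 tested higher (median 0.19), 1 of them, Lyz2 (0.57), at an unadjusted p under 0.05. The median deviation of these 5 was -0.62 on control array 2 and -0.08 to 0.10 on the other control arrays. On quercetin arrays 1 to 4 it was 0.36, 0.37, 0.07 and -0.02. Of all 14 measured leukocyte markers 9 were below the filter, and 11 of the 14 were higher. Cd3e (-0.78), Cd68 (-0.41) and Cd163 (-0.34), all below the filter, were lower. The others below the filter were higher: Ms4a1 (1.26), Cd79b (0.45), Cd8a (0.28), Cd3d (0.17), Cd4 (0.11) and Itgam (0.07). Summed signals of the 14 were 1788 to 3908 in control and 2976 to 3152 in quercetin. The brightest, Cd14, had means of 2319 and 2184 (log2 fold change 0.02). Goblet markers had 5 of 8 higher (median 0.09) and colonocyte markers 12 of 19 (median 0.09). At an unadjusted p under 0.05, 3 colonocyte markers were higher, Slc9a3 (0.72), Slc51a (1.55) and Slc16a1 (0.43), and 0 lower. Of the goblet markers 1 was higher at that level, Spink4 (1.37), and 0 lower. Smooth muscle markers had 4 of the 7 tested higher (median 0.11) and fibroblast and endothelial markers 1 of the 3 tested (median -0.11), with 0 at that level in either list. No marker of these lists was at 0 on any array, and the part of such cells in the result was not tested. The ratio of 3′ to 5′ GAPDH signal, a measure of RNA quality, was 3.79 on control array 2 and 1.58 to 2.36 on the other 7 arrays. Control array 2 held the lowest signal of 22 of the 73 genes (30.1%), and of 19.5% of all probe sets. Control array 1, with the lowest ratio, 1.58, held the lowest signal of 19 of the 73 (26.0%), and of 19.8% of all probe sets. The same ratio for beta-actin was 8.65, 21.4, 10.2 and 12.4 on the control arrays and 7.18, 8.90, 9.12 and 6.79 on the quercetin arrays, so 3 of the 4 control arrays lay above every quercetin array. Its part in the result was not tested. With the GAPDH ratio as a covariate 8 of the 73 were higher and 1 lower at an unadjusted p under 0.05, and the median was 0.09 with 50 higher. In that fit 6.99% of all probe sets were higher and 6.87% lower. In these bulk samples fewer cells of a type and less RNA per cell cannot be told apart.

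Among large-subunit proteins with a bacterial counterpart, Mrpl35 had the smallest p of all 73 genes. Its signal was 291, 339, 475 and 324 on control arrays 1 to 4 and 614, 623, 507 and 463 on quercetin arrays 1 to 4. Control array 3 lay just above quercetin array 4, and all other quercetin values were above all control values. The log2 fold change was 0.62 (SE 0.173, adjusted p = 0.28 by limma), 1.53-fold. Mrpl19, a protein at the interface of the subunits, had 182, 225, 291 and 244 in control and 459, 316, 307 and 261 in quercetin, with quercetin array 1 far above the rest. Its log2 fold change was 0.47 (SE 0.196).

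Mrpl38 is a large-subunit protein specific to mitochondria, and it had the dimmest probe set of the 73. Its signal was 58.2, 97.7, 36.0 and 87.1 on the control arrays and 125, 153, 117 and 109 on the quercetin arrays, so every quercetin array lay above every control array. The log2 fold change was 0.78 (SE 0.257, adjusted p = 0.333 by limma), with an unadjusted 95% interval of 0.23 to 1.34. Mrpl35 and Mrpl38 kept an unadjusted p under 0.05 in all 20 alternative fits, up to 0.0347 and 0.0320, and in none of these did either pass after adjustment.

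Mrpl52, likewise specific to mitochondria, was the other gene without overlap. Its signal was 547, 444, 560 and 532 in control and 609, 629, 628 and 625 in quercetin, where the 4 values lay close together (623 ± 9.52, SD, n = 4). The log2 fold change was 0.26 (SE 0.130, adjusted p = 0.511 by limma). Its other probe set overlapped between the groups and had -0.12, and the mean of both probe sets had 0.07. Mrps30, in the large subunit despite its symbol, had 447, 415, 672 and 439 in control and 730, 726, 540 and 580 in quercetin. Control array 3 reached the quercetin range, and the log2 fold change was 0.39 (SE 0.176). Mrpl44, which has the fold of a double-stranded RNA nuclease, had 208, 240, 268 and 257 in control and 377, 318, 296 and 257 in quercetin (log2 fold change 0.33, SE 0.162).

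The 3 homologues of bacterial ribosomal protein S18 are separate genes whose proteins sit at different places of the mitoribosome. Mrps18b had 331, 430, 419 and 358 in control and 649, 631, 397 and 491 in quercetin. Quercetin arrays 1 and 2 lay well above the control range and quercetin array 3 inside it, and the log2 fold change was 0.46 (SE 0.176, adjusted p = 0.378 by limma). Mrps18a had 335, 380, 507 and 463 in control and 651, 466, 467 and 471 in quercetin, where array 1 alone stood above the control range. Its log2 fold change of 0.28 (SE 0.171) was 0.16 without quercetin array 1. Mrps18c had 109, 164, 207 and 98.9 in control and 219, 189, 144 and 182 in quercetin (0.35, SE 0.228), and another of its probe sets had -0.04. Without control array 4 its value was 0.21. Without control array 1 that of Mrps18a was 0.18. None of the 3 passed, and their intervals overlapped widely.

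In the small subunit Mrps2, with a bacterial counterpart, had 209, 350, 338 and 213 in control and 461, 462, 283 and 311 in quercetin (log2 fold change 0.44, SE 0.221). Its other tested probe set had 0.14, and the mean over its probe sets 0.21. Quercetin arrays 1 and 2 were above the control range and arrays 3 and 4 within it. Mrps27, an RNA-binding protein with pentatricopeptide repeats, was the gene whose tested probe sets disagreed most. The brightest had signals of 113, 188, 285 and 234 in control and 305, 282, 189 and 237 in quercetin (0.33, SE 0.247), and a dimmer one had -0.81 (SE 0.453). Its dimmest, below the filter and not tested, had 1.09 with no overlap between the groups. Without control arrays 1 and 2 the value of the brightest was -0.05, without control array 1 it was 0.10, and without control array 3 it was 0.50.

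Of the 20 genes with lower means in quercetin, 0 had an unadjusted p under 0.05. Mrpl36, a small protein of the large subunit with a bacterial counterpart, had 1298, 1105, 1094 and 1222 in control and 1221, 797, 896 and 931 in quercetin. Quercetin array 1 stood inside the control range and the other 3 below it. The log2 fold change was -0.30 (SE 0.147, adjusted p = 0.485 by limma), and -0.42 without quercetin array 1. Mrpl42 had 676, 581, 715 and 653 in control and 678, 461, 530 and 537 in quercetin, again with quercetin array 1 among the controls (-0.25, SE 0.147).

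Mrps31 had 372, 417, 604 and 386 in control and 504, 279, 323 and 332 in quercetin (-0.30, SE 0.204). It was -0.15 without control array 3, -0.20 without quercetin array 2 and -0.47 without quercetin array 1. Mrpl51 had 1086, 1057, 1205 and 992 in control and 1173, 853, 908 and 850 in quercetin (-0.20, SE 0.140), and its other 3 probe sets had -0.01, 0.14 and 0.28. In each of these 4 genes quercetin array 1 was the highest of the quercetin arrays. Mrps26, a small-subunit protein specific to mitochondria, had 640, 983, 911 and 588 in control and 835, 680, 533 and 598 in quercetin, with wide overlap. Mrpl49 (-0.18), Mrps26 (-0.22), Mrpl33 (-0.16) and Mrps23 (-0.13) followed in order of p, with unadjusted p-values of 0.257 to 0.405 by limma. Leaving out 1 array moved each of these values by over 1.5 times: Mrpl49 ran from -0.28 to -0.12, Mrps26 from -0.34 to -0.10, Mrpl33 from -0.27 to -0.11 and Mrps23 from -0.22 to -0.03. The values nearest zero came without quercetin array 4 for Mrpl49 and Mrps23, without control array 2 for Mrps26 and without quercetin array 3 for Mrpl33.

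**Figure D3:**
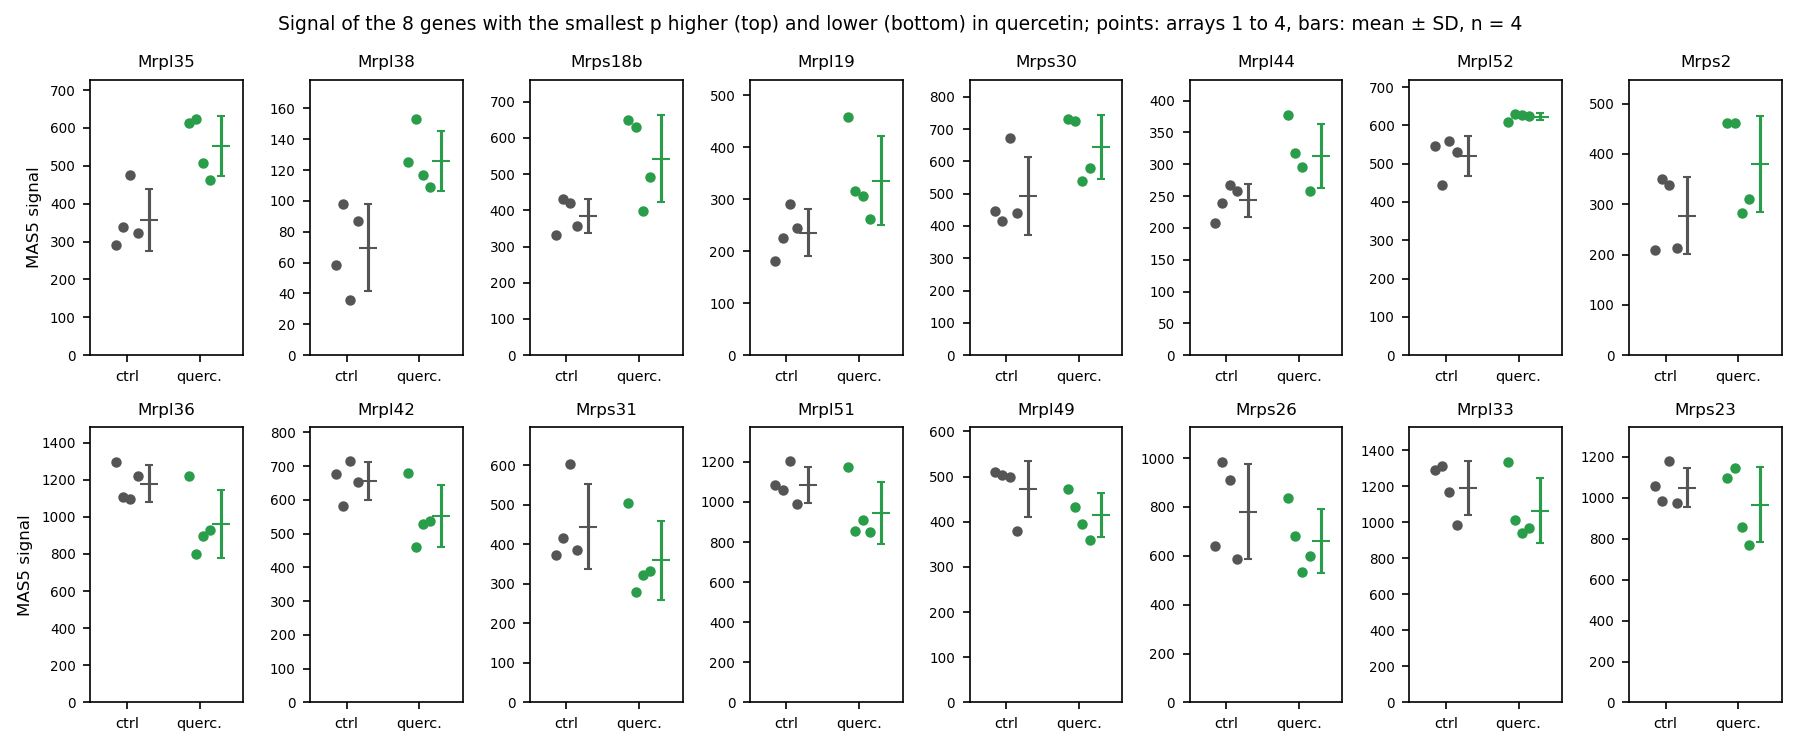
MAS5 signal of the 8 genes with the smallest p on the higher side (top) and on the lower side (bottom), 1 point per array, with mean ± SD (n = 4) beside the points; axes start at 0 and differ between panels. The groups are separate for Mrpl38 and Mrpl52 and overlap in the other 14 panels.

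The 4 genes with the highest signals had log2 fold changes between -0.17 and 0.14. Mrpl12 had 2526 ± 387 (SD, n = 4) in control and 2626 ± 186 (SD, n = 4) in quercetin (log2 fold change 0.07, SE 0.134), and its sign turned without control array 1 or with a mean over its probe sets. Mrps6, the counterpart of bacterial S6, had 1991 ± 517 (SD, n = 4) and 1773 ± 406 (SD, n = 4), with -0.17 (SE 0.20), and values near zero without control array 1 or without quercetin array 2. Mrpl41 had 0.14 (SE 0.158), and 0.03 without quercetin array 1. Mrpl18 had -0.08 (SE 0.127), and -0.03 without control array 3 or without quercetin array 2. Chosen after its values were seen, Mrps24 had the smallest standard error of the 73. Its signal was 935 ± 38.7 (SD, n = 4) in control and 952 ± 50.6 (SD, n = 4) in quercetin, and its unadjusted 95% interval of the log2 fold change ran from -0.23 to 0.28.

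Of 48 large-subunit genes 33 were higher, with a median log2 fold change of 0.08, and of 25 small-subunit genes 20 were higher, with a median of 0.14. Genes with a bacterial counterpart had 34 of 44 higher (median 0.14) and those specific to mitochondria 19 of 29 (median 0.09). No test of the difference between these groups was made. When each gene was given the mean over its probe sets, 49 of the 73 were higher and the median was 0.07.

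Other genes of mitochondrial protein synthesis were measured on the same arrays, and 0 passed limma's adjusted threshold in any list. Of 5 mitoribosomal proteins with other symbols 4 were higher (median 0.12, 0 at an unadjusted p under 0.05), among them Ptcd3 (0.32), while Chchd1 had -0.20. Of 14 translation factors tested 11 were higher (median 0.15), and 3 had an unadjusted p under 0.05, all higher. Tsfm, which recharges the elongation factor Tu of mitochondria, had 193 as its mean control signal and 306 as its mean quercetin signal (0.65, SE 0.184, adjusted p = 0.28 by limma), with no overlap between the groups. Gfm1, the elongation factor that moves the ribosome along the message, had 0.62 (SE 0.212). Of 26 assembly factors 19 were higher (median 0.15, 3 higher and 0 lower at an unadjusted p under 0.05). Malsu1, which binds the large subunit during assembly, had 0.47 (SE 0.152) and the ribosomal RNA methyltransferase Mrm3 0.84 (SE 0.362).

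Of 18 mitochondrial aminoacyl-tRNA synthetases and tRNA amidotransferase subunits 14 were higher (median 0.10), with Iars2 at 0.43 (SE 0.163) and Kars1, which also serves the cytosol, at 0.29. Of these 18, 1 had an unadjusted p under 0.05. Genes that maintain and transcribe mitochondrial DNA or process its RNA had 10 of 17 higher (median 0.05), with Hsd17b10 at 0.44 and Top1mt at 0.43. Transcriptional regulators had 6 of 12 higher (median -0.0021), with Myc at 0.86 (SE 0.354) and its partner Max at -0.36. Cytosolic ribosomal proteins, for comparison, had 19 of 40 higher and a median of -0.02, with Rpl37a at -0.76 and Rpl4 at 0.37, and 1 higher and 2 lower at an unadjusted p under 0.05. The median of the mean signals in this list was 9319, but some genes rested on dim probe sets. Mean signals in control and quercetin were 52.4 and 27.4 for Rps13 and 40.8 and 37.7 for Rpl30. They were 149 and 160 for Rps4y2 and 257 and 197 for Rpl39. The difference between mitochondrial and cytosolic ribosomal proteins was not tested.

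**Figure D4:**
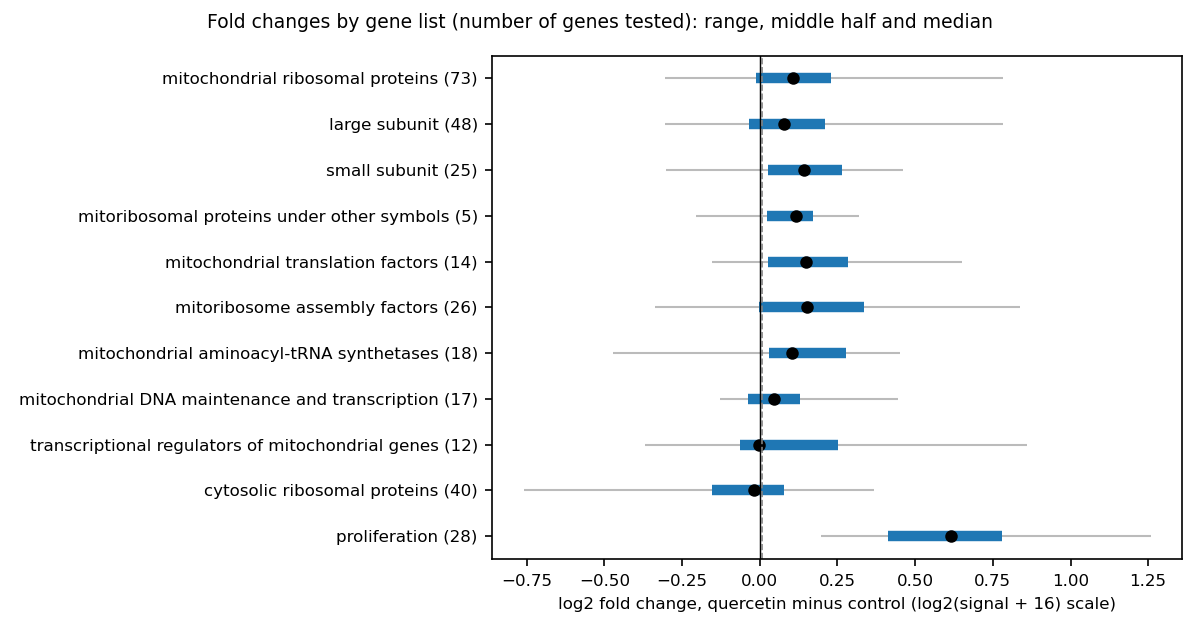
Log2 fold changes (quercetin minus control) of genes in each list, with the number of genes tested in brackets; grey lines give the range, blue bars the span from the lower to the upper quartile and points the median, and the dashed line is the median of all probe sets. The medians of the mitoribosomal genes and the other mitochondrial translation lists lie between 0.10 and 0.15. The large subunit alone has 0.08 and the small subunit 0.14. Genes for mitochondrial DNA have 0.05 and transcriptional regulators -0.0021. The median of cytosolic ribosomal proteins is -0.02 and that of proliferation genes 0.62.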

How the data were processed

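Total RNA from scraped distal colon mucosa of rats was hybridised to Affymetrix arrays. The deposited table gives each array's intensity on a linear scale, and the submitters' processing notes name MAS5. After trimming 2% at either end, the deposited signals averaged 200.1 on all 8 arrays. The sources used here do not give further steps. Groups and replicate numbers came from the sample titles.

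The table has 31099 probe sets, and its 57 array controls were excluded. The analysis used log2(signal + 16), on which changes of dim probe sets are understated. The upper 60% by mean (18625, a signal of about 29.4 or more) were tested with limma 3.58.1 in R 4.3.3 (trend, two-sided). Equal trimmed means across the authors' arrays rest on the assumption that most transcripts hold their level. Precision is limited by 4 arrays per group. The steps were tested on simulated data. Symbols of all 73 genes were found in RefSeq (GRCr8) and 0 changed.

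The genes, lists and tests were chosen with earlier results of these data known. Named were, in each direction, genes past the threshold, filled to 8 by p, and the 4 with the highest signal. The Mrps18 family and genes whose tested probe sets differed in sign and by over 0.5 were named too. Each other list, the proliferation genes included, gave the 2 genes with the smallest p, except the other cell type markers. Of those markers, the ones at an unadjusted p under 0.05 and some further leukocyte markers were named. Some cytosolic ribosomal proteins with dim probe sets were named too. Subunit followed the place in the assembled mitoribosome, and origin the homology to a bacterial protein, both from textbook knowledge. Alternatives were other pseudocounts, normalisations, filters, weights, a replicate block, probe set rules, an RNA quality covariate and left-out arrays.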

Additional observations from a re-analysis of the deposited data

Results flagged for a closer look

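Of 72 groups of 4 arrays examined for a single array far from the other 3, 6 had one, where chance gives about 3.6. In brackets stands the distance from that array to its nearest neighbour, divided by the whole range of the 4. Control array 3 was high for Mrps30 (0.848), with a signal of 672 against 415 to 447 on the other control arrays. It was also high for the median deviation of the 73 mitoribosomal genes (0.965), at 0.08 against -0.10 on the other 3, and for that of the mitochondrial translation factors (0.851). Control array 4 was low for Mrpl49 (0.928), at 380 against 499 to 510. Quercetin array 1 was high for Mrps18a (0.970), at 651 against 466 to 471. Quercetin array 4 was high for the ratio of 3′ to 5′ hexokinase signal (0.947), at 6.05 against 2.16 to 2.37.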

How the results depend on the processing

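In all 20 alternatives 0 mitoribosomal genes passed the adjusted threshold by limma, with a smallest adjusted p of 0.160. Over all probe sets 2 passed in the analysis as reported, and 1 passed with a pseudocount of 1, quantile normalisation, median centring, no filter, a replicate block or no trend, while 3 passed with a pseudocount of 64. With the mean of probe sets or without control arrays 1 and 2, 0 passed, and leaving out 1 array gave 1 to 2. Of the 73 genes, 5 had an unadjusted p under 0.05, 9 with the GAPDH covariate, 2 without control arrays 1 and 2, and 2 to 9 with 1 array left out. Of all probe sets 5.04% were higher and 5.71% lower as reported, and 6.99% and 6.87% with the GAPDH covariate. These shares were 3.42% and 4.04% without control arrays 1 and 2. With 1 array left out they were 3.14% to 5.62% higher and 4.63% to 6.41% lower. The sign turned for Mrpl51 (0.0506) and Mrpl12 (-0.0416) with the mean of probe sets and for Mrps27 without control arrays 1 and 2 (-0.0472). With 1 array left out, Mrpl12 ran from -0.0037 to 0.14 and Mrps6 from -0.26 to 0.0067. The cause was not tested. The other 454 values of named genes kept their sign and their side of the threshold.

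With the replicate number as a block, 4 of the 73 genes had an unadjusted p under 0.05, 3 higher and 1 lower, and the median was 0.11. Of all probe sets 4.79% were higher and 6.29% lower in that fit. Same-numbered arrays had correlations of their deviations of -0.02, 0.16, -0.15 and 0.14, and 3 of 8 arrays correlated best with their own number, so the number was not taken as a pairing. Arrays number 4 per group, and dim probe sets such as that of Mrpl38 had the widest intervals.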
